A study of Drosophila melanogaster with 3 samples.

Results

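The genes described here encode 9 nuclear factors through which the Argonaute protein Piwi silences transposons in the Drosophila ovary: Panx, nxf2, Nxt1, ctp, mael, wde, the gene of heterochromatin protein HP1a, Su(var)3-3 and CoRest. They were taken by gene symbol, each through the probe set of highest mean among those annotated to that gene alone, and all 9 were found among 11982 measured genes. The samples were 3 RNA preparations of OSS cells, a stable line from the somatic follicle lineage of the Drosophila melanogaster ovary, each hybridised to its own Affymetrix GeneChip. All 3 formed 1 group, OSS replicates 1 to 3: untreated cells harvested near confluence during exponential growth in a Shields and Sang medium that held serum, insulin, glutathione and an extract of flies. No other genotype, treatment or time was labelled, and nothing in the labels tells whether they were separate cultures. Every SD and p-value below therefore covers only the spread between these arrays, which may be technical.

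In the nucleus, Piwi finds nascent transposon transcripts by pairing of its bound piRNA. An adaptor complex of Panx, Nxf2, Nxt1 and the LC8 dynein light chain Ctp then links the target to the heterochromatin machinery. The methyltransferase Egg with its cofactor Wde methylates histone H3 at lysine 9, HP1a reads that mark, LSD1 (Su(var)3-3) with CoRest removes methyl groups from lysine 4, and Maelstrom (mael) is needed downstream of Piwi. In follicle cells this nuclear arm acts without the germline ping-pong cycle.

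The arrays gave 1 log2 expression level for each probe set. Each gene was set against a background level of 2.49, the 95th percentile of the means of 112 odorant and gustatory receptor genes, which were taken as unused in these cells. The test was limma on all 11982 genes, one-sided, with Benjamini-Hochberg adjustment and a threshold of 0.05. A stricter level lay 1 log2 unit higher, at 3.49. Probe sets differ in affinity, so a higher value of one gene than of another does not measure more transcript, and the 9 genes were not ranked against each other. The medians over single-gene probe sets were 2.427, 2.430 and 2.429 on the 3 arrays, and Pearson correlations between arrays over all genes ran from 0.984 to 0.994.

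The labelled cell type was set against lists of marker genes. How specific the genes of each list are to their cell type was not tested. All 5 measured ovarian somatic markers were above background, with means from 4.22 for the receptor gene Egfr to 6.83 ± 0.69 (SD, n = 3) for the transcription factor gene tj; Fas3, the marker named in the labels, was not analysed here. All 8 germline markers were below background, 7 of them at the lowest value of the table (2.39), among them vas, nanos, bam and AGO3. Of 5 hemocyte, 4 muscle and 4 fat body markers measured, 3 were above background: the hemocyte genes Pxn at 4.43 ± 0.27 (2.41 by its second probe set) and crq at 3.54 ± 0.062, and the muscle gene Mlc2 at 3.25 ± 0.055 (SD, n = 3). The muscle gene Prm was unresolved (limma, adjusted p = 0.21), although its values of 2.72, 2.65 and 3.92 all lay over the level. Its second probe set had a mean of 2.75. The hemocyte genes Hml and eater and the muscle gene Act88F lay at 2.39 on every array. All 4 genes listed as fat body markers (Fbp1, Fbp2, Lsp2 and Yp1) were below background. Whether these 4 are restricted to fat body was not tested, so no conclusion on the cell type is drawn from them. Over all genes 46.6% were above background and 50.1% were below it. Calls of below background rest on the near-zero spread of such genes, since the lowest value of the table lay 0.098 log2 units under the level. As an alternative, 1 pooled SD of 0.22 was taken from the median variance of the genes with 3 distinct values. Genes with repeated values did not enter it. With that SD for every gene, a normal test in place of limma called 0 of 11982 genes below background, also at an unadjusted p under 0.05. That test could call none below, since the lowest value lies too near the level for such an SD. By that test, the genes reported here as below background, germline markers included, were not called in either direction. The part of other cell types in the results below was not tested.

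Of the 9 silencing genes, 8 were above background and 1, wde, was not resolved from it. Over all genes, 46.6% were above. At the stricter level 6 of the 9 passed, against 25.3% of all genes. The median difference from background was 2.71 log2 units over the 9 genes and -0.02 over all genes. On each single array, none of the 112 receptor genes reached the value of any of the 8 genes called.

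**Figure D1:**
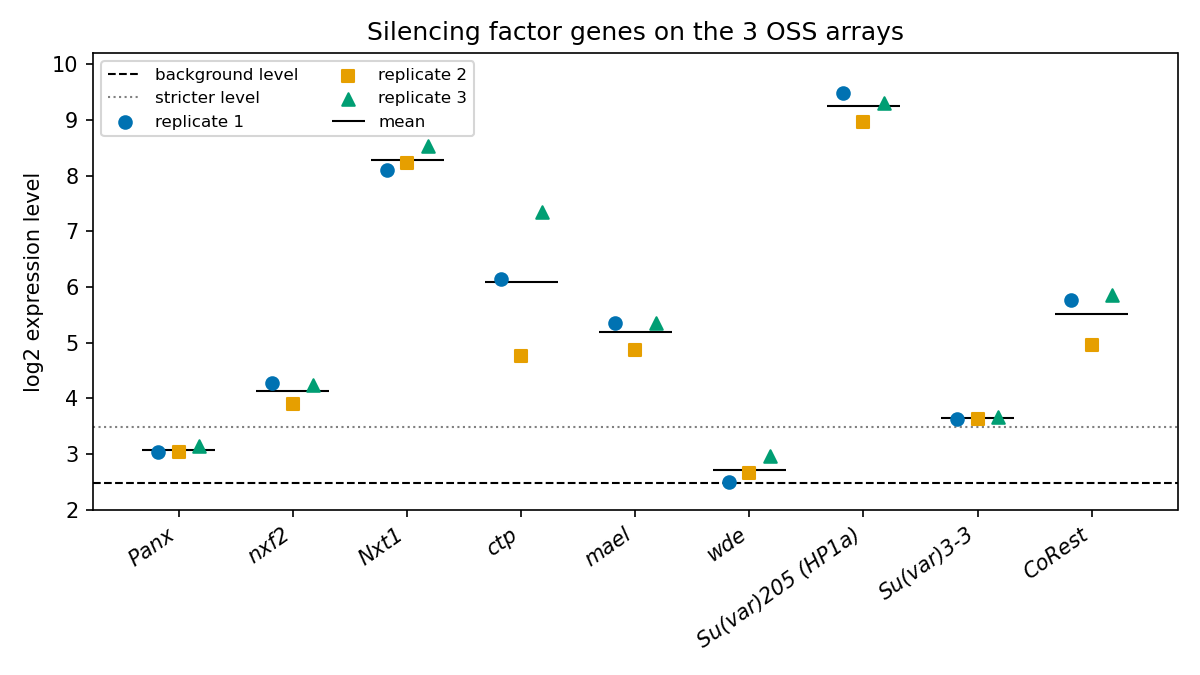
Log2 expression level (y axis) of the 9 silencing factor genes (x axis, gene symbols, HP1a added beside its gene's symbol) on each of the 3 OSS arrays, with the mean of each gene as a short line, the background level of 2.49 dashed and the stricter level of 3.49 dotted. Every point of 8 genes lies over the background level; the points of wde start at it. Heights of different genes cannot be compared, because probe sets differ in affinity.

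The complex that joins Piwi to the silencing machinery was measured through 4 genes. Panx, the adaptor whose tethering to a nascent RNA is enough to silence it, measured 3.03, 3.03 and 3.14 in replicates 1, 2 and 3. These values were low but above background, by 0.58 log2 units (95% interval 0.47 to 0.69; limma, adjusted p = 0.0011), and the upper bound stayed short of the stricter level. The highest of the receptor genes, Gr39a, had a mean of 2.79, under every Panx value.

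The gene nxf2 encodes a relative of the general mRNA export receptor that works in silencing in place of export. It measured 4.28, 3.90 and 4.24, with replicate 2 the lowest. Its difference from background was 1.65 log2 units (95% interval 1.29 to 2.01; limma, adjusted p = 0.0016), and it passed the stricter level as well (adjusted p = 0.025).

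Nxt1, the small cofactor that pairs with both the export receptor and its silencing relative, measured 8.10, 8.23 and 8.52. The spread between arrays was small beside its distance from background of 5.80 log2 units (95% interval 5.42 to 6.18; limma, adjusted p = 0.00011). Nxt1 also serves bulk mRNA export.

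The dynein light chain gene ctp, whose product dimerises many proteins including Panx, was the most variable of the 9. It measured 6.14, 4.76 and 7.35, so that replicate 3 exceeded replicate 2 by 2.59 log2 units. The mean of 6.08 ± 1.29 (SD, n = 3) lay 3.59 log2 units above background, with an interval of 1.32 to 5.87 (limma, adjusted p = 0.019). It did not pass the stricter level (adjusted p = 0.071), and without replicate 1 it was not called above background either (adjusted p = 0.091). Of the 5587 genes above background, 7 had an SD as large as that of ctp (0.13%), ctp included.

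Among heterochromatin factors, the gene of HP1a measured 9.48, 8.97 and 9.31. Its difference from background was 6.77 log2 units (95% interval 6.31 to 7.22; limma, adjusted p = 0.00012). HP1a also packages pericentric heterochromatin outside the piRNA pathway.

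The gene wde encodes Windei, the partner that keeps the methyltransferase Egg in the nucleus and active. It measured 2.50, 2.66 and 2.97, where replicate 1 sat at the background level and replicate 3 above it. The difference of 0.22 log2 units had an interval that included 0 (-0.20 to 0.64; limma, adjusted p = 0.19). On replicate 1 there were 5 of the 112 receptor genes at or over the value of wde, on replicate 2 there were 2, and on replicate 3 there were 0. Signal of wde was therefore not resolved from background on these arrays, which does not show that the transcript was absent. The partner gene egg was not analysed here.

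Su(var)3-3, the gene of the lysine 4 demethylase LSD1, measured 3.62, 3.62 and 3.67. Its spread was the smallest of the 9 genes, with an SD of 0.027, and its difference from background was 1.15 log2 units (95% interval 1.11 to 1.20; limma, adjusted p = 4.1e-05). It passed the stricter level by a small margin (adjusted p = 0.0069).

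CoRest, the corepressor that holds LSD1 on nucleosomes, measured 5.76, 4.95 and 5.85 by its probe set of highest mean. The difference from background was 3.03 log2 units (95% interval 2.17 to 3.90; limma, adjusted p = 0.0029), with replicate 2 lowest. The gene mael, whose product carries an HMG box and a nuclease-like domain, measured 5.36, 4.86 and 5.36, again with replicate 2 lowest, and lay 2.71 log2 units above background (95% interval 2.21 to 3.21; adjusted p = 0.0011).

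Probe sets of the same gene disagreed for CoRest. Its 3 single-gene probe sets had means of 5.52, 2.80 and 2.44, a range of 3.08 log2 units, and the last lay under the background level. Of 1094 genes with several probe sets, 60 (5.48%) had a range as large. With the probe set of lowest mean CoRest was not called above background (-0.01 log2 units from the level recomputed on such probe sets), so its call rests on which probe set is read. The first of them was read here because the rule takes the highest mean.

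The 2 probe sets of ctp had means of 6.08 and 4.14. The second measured 3.91, 3.50 and 5.02 in replicates 1 to 3. Both probe sets were thus lowest in replicate 2 and highest in replicate 3, and none of the 6 values fell under the stricter level. The other 7 silencing genes had 1 probe set each.

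**Figure D2:**
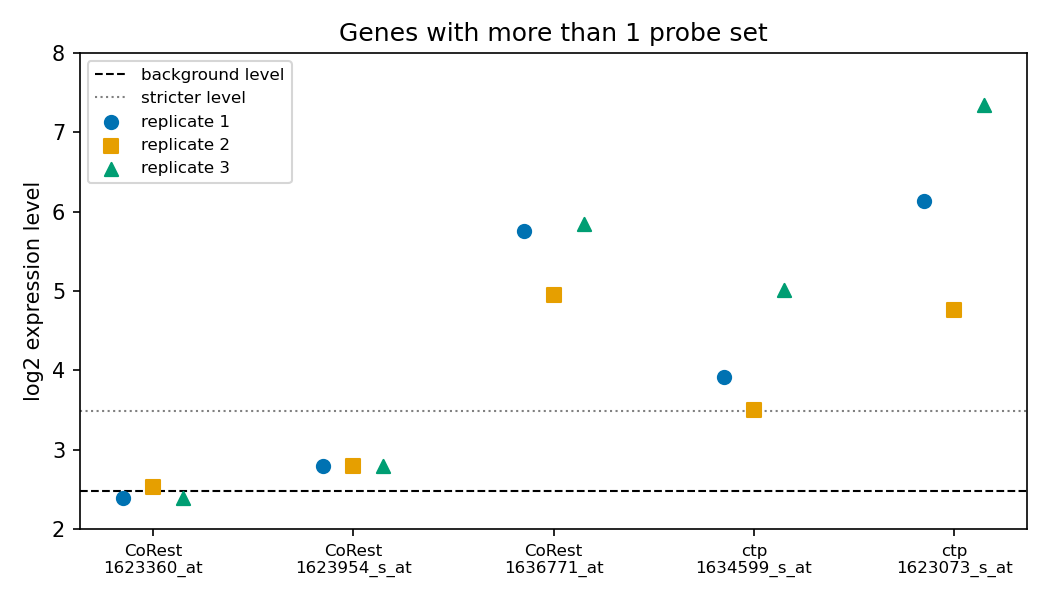
Log2 expression level (y axis) of every single-gene probe set of CoRest and ctp (x axis, by probe set ID) on each of the 3 arrays, with the background level dashed and the stricter level dotted. The CoRest probe sets spread over 3.08 log2 units, whereas both ctp probe sets lie over the stricter level and place the 3 arrays in one order.

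The arrays did not contribute evenly to the spread. Of the 9 genes, 5 (nxf2, ctp, mael, the HP1a gene and CoRest) were lowest in replicate 2 and 0 were highest there, whereas 6 were highest in replicate 3, among them Panx, wde and Nxt1. Over all 5587 genes above background, ties included, 30.6% were lowest and 9.1% highest in replicate 2, and 28.3% were highest in replicate 3. Replicate 2 was also the lowest array for many other genes: among 2338 genes above background with 3 distinct values, 60.8% were lowest in replicate 2, with a median deviation from their own mean of -0.12 log2 units. Of the 6 silencing genes with 3 distinct values, 4 were lowest in replicate 2 and 4 were highest in replicate 3. Their median deviation was -0.26 in replicate 2 and 0.25 in replicate 3. Over the 2338 genes, the median deviation in replicate 3 was 0.041, and 45.6% were highest there. These positions are a description of the arrays and were not tested.

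**Figure D3:**
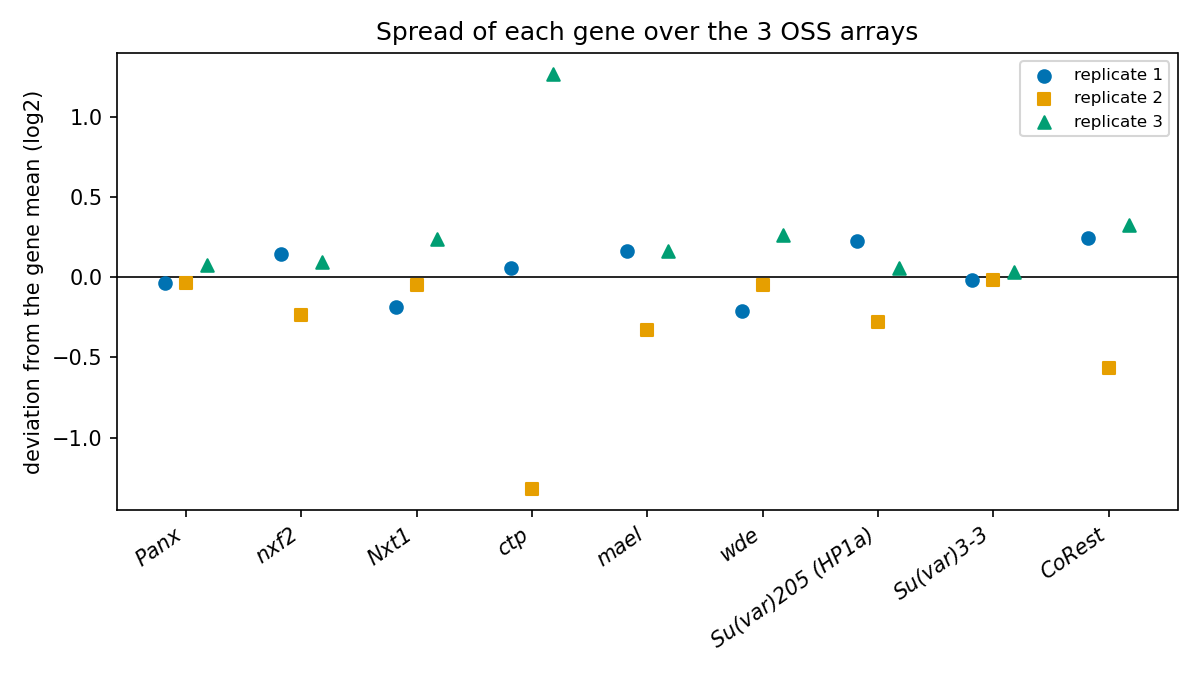
Deviation of each array from the mean of the gene (y axis, log2 units) for the 9 silencing factor genes (x axis). Points of replicate 2 lie at the bottom for 5 genes, and ctp spans 2.59 log2 units, the widest range of the 9.

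Exact repeats of values limited the reading of small spreads. Panx and Su(var)3-3 had identical deposited values in replicates 1 and 2, and mael in replicates 1 and 3. Among all genes above background, 29.0% were identical on exactly 2 arrays and 29.2% on all 3, so the SDs of 0.063 for Panx and 0.027 for Su(var)3-3 may understate the measurement error. With the pooled SD of 0.22, 8 of the 9 were above background, against 4875 of all 11982 genes.

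The 3 genes whose deviations over the 3 arrays lay nearest to those of ctp, by Euclidean distance among genes above background, were me31B at a distance of 0.10 log2 units, Ip259 at 0.31 and Gasp at 0.40. The gene me31B, which encodes an RNA helicase of cytoplasmic RNP granules, measured 6.76, 5.24 and 7.90 in replicates 1 to 3. Without replicate 1, me31B was not called above background (limma, adjusted p = 0.078). Gasp passed narrowly (adjusted p = 0.049) and was not called under 8 of 15 alternatives (adjusted p from 0.051 to 0.16). The likeness describes 3 arrays of 1 condition and carries no test.

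Partners and paralogs of these factors were read in the same way. Over the 6 related lists together, 28 of 36 measured genes passed above background (77.8%, against 46.6% of all genes) and 17 of them also above the stricter level (47.2%, against 25.3%). These shares are the ones to read each list below against. With the pooled SD 25 of the 36 were above, against 4875 of all 11982 genes. By limma, another 7 were below background and 1 was unresolved, and the median difference from background was 1.01 log2 units.

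Other factors of the silencing pathway were above background in 7 of 8 cases, 5 of them at the stricter level. Sumo, the gene of the small modifier that the pathway attaches to chromatin proteins, measured 8.82, 7.86 and 9.66. Aos1, a subunit of the enzyme that activates SUMO, measured 7.79 ± 0.14 (SD, n = 3). HDAC1, the histone deacetylase gene, was near background at 2.91 ± 0.041. The gene sov, which encodes a zinc-finger protein of heterochromatin, was unresolved, at 2.39 in replicates 1 and 2 and 2.76 in replicate 3. Chosen after their values were seen, piwi itself measured 6.44, 5.98 and 6.98, and the SUMO ligase gene Su(var)2-10 measured 3.21 ± 0.0097 (SD, n = 3) by one probe set and 2.43, under the background level, by the other. The genes arx, egg, lwr and MEP-1 were not analysed here.

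The HP1 family divided evenly. HP1b at 6.66 ± 0.17 (SD, n = 3), HP1c at 5.06 ± 0.0069 and HP1D3csd at 4.40 ± 0.27 were above background and passed the stricter level. HP1e, HP6 and rhi were below background at 2.39 on every array; rhi encodes Rhino, the HP1 protein of germline dual-strand piRNA clusters. The share of 3 in 6 paralogs was near the 46.6% of all genes.

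Of 5 measured genes around H3K9 methylation and HP1 binding, 4 were above background and 1 at the stricter level. HP4, the gene of an HP1a-binding protein, measured 6.08, 5.34 and 6.40, but its second probe set had a mean of 2.40. Su(var)3-7, a zinc-finger partner of HP1a, measured 2.97 on every array. HP5 and ADD1, at 2.55 each, exceeded background by 0.06 log2 units, were not called with the pooled SD (adjusted p = 0.68 and 0.70, normal test on 3 arrays in place of limma) and lay below the level when it was set at the 99th percentile of the receptor genes. Su(var)2-HP2 was below background at 2.39.

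All 4 measured partners of LSD1 and CoRest were above background, and 1 of them at the stricter level. That gene was Lint-1, whose product forms a repressor complex with L(3)mbt and CoRest, at 4.42, 4.38 and 3.97. Kdm5, another lysine 4 demethylase gene, measured 3.14 ± 0.043 (SD, n = 3) and HDAC1, also on this list, 2.91 ± 0.041. The repressor gene l(3)mbt measured 2.79 ± 0.013, close to the highest receptor gene, and 2.39 on every array with its second probe set. With the highest receptor gene as level it was not called above (-0.0010 log2 units).

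Nuclear export factors were above background in 7 of 9 cases. The mRNA export adaptor gene Ref1 measured 8.13 ± 0.30 (SD, n = 3) by its highest probe set, with means of 4.81 and 2.85 for its others, and the helicase gene Hel25E 7.31 ± 0.17. The other relatives of nxf2 were below background: Nxf3, which exports germline cluster transcripts, at 2.40, and nxf4 at 2.39. A further probe set, annotated to Nxf3 together with another gene, had a mean of 2.50, just over the level, and was not used. The general export receptor gene sbr was not analysed here. Of the 3 measured NXF genes, nxf2 was therefore the one above background by single-gene probe sets.

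Of 5 measured genes for dynein light chains and their partners, 4 were above background. Dlc90F, a light chain gene of the Tctex class, measured 7.38 ± 0.34 (SD, n = 3), robl of the roadblock class 6.90 ± 0.058, and the heavy chain gene Dhc64C 5.09 ± 0.15, although its other probe sets measured 2.41 and 2.39 on every array. Dic61B, an intermediate chain gene, was at 2.55. It was not called with the pooled SD and lay below the level when that was set at the 99th percentile of the receptor genes. Cdlc2, the LC8 paralog of ctp, measured 2.39, 2.40 and 2.39 and was below background. The 2 proteins are near-identical in sequence. Both ctp probe sets are annotated to ctp alone but carry a suffix of shared sequence. Probe sequences were not available, so whether Cdlc2 adds to the ctp signal was not tested.

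**Figure D4:**
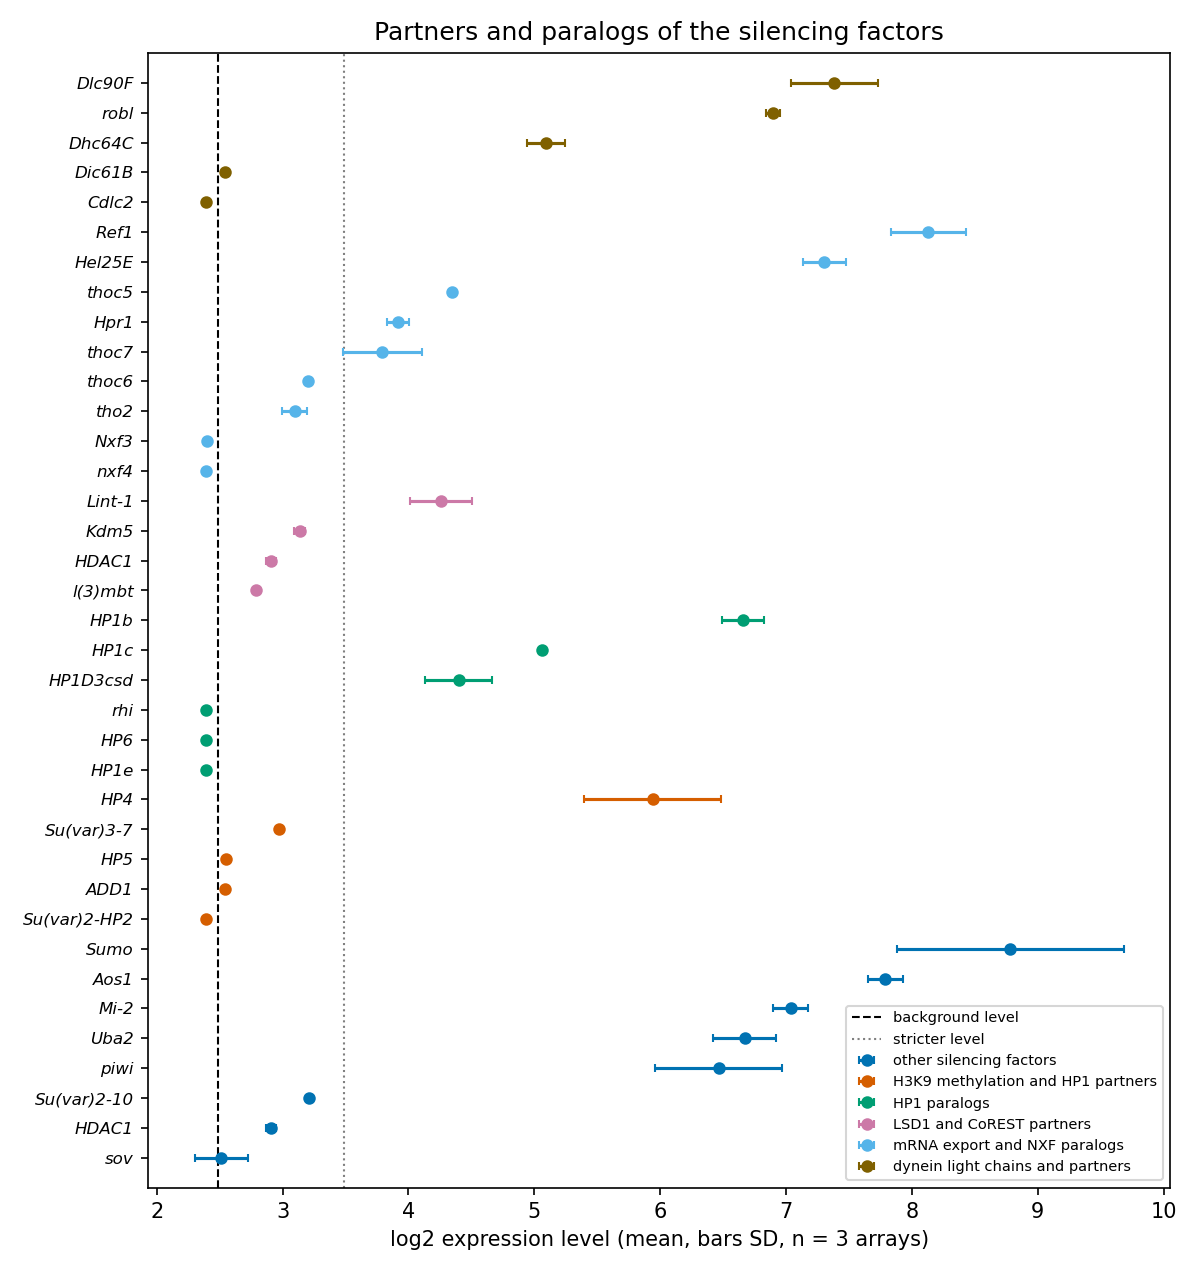
Mean log2 expression level (x axis, bars SD, n = 3 arrays) of the measured genes of 6 related lists (y axis, coloured by list), with the background level dashed and the stricter level dotted; HDAC1 belongs to 2 lists and appears for each. Genes of every list but the LSD1 and CoREST partners lie on both sides of the dashed line or, for sov, across it.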

How the data were processed

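Expression was measured on Affymetrix GeneChips in 3 samples of 1 group. The deposited values were log2 levels per probe set and array; per the labels' protocols, custom scripts were run on the scanner output, and the log base was inferred from the range. The sources used here do not name the background correction, scaling, summary method or genome build, so no coordinates are printed. Values were used as deposited. Of 18952 probe sets, 13647 carried 1 gene in the platform annotation and named 11982 genes; 13544 of them matched the RefSeq table of assembly Release 6 plus ISO1 MT by gene identifier. Each gene took its probe set of highest mean. An intercept-only limma 3.58.1 fit in R 4.3.3 tested each gene against the background level; SDs under 1e-09 were set to 0. Many genes have an SD of 0, where limma's moderation is unreliable, so a pooled SD was an alternative. The procedure was tested on simulated data with normal noise and no SD of 0. That simulation does not cover genes whose values repeat between arrays. The number of arrays limits the precision.

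Genes named were the 9 members, the 2 highest and 2 lowest genes of each other list (all where 6 or fewer were measured) and the 3 genes nearest to the most variable member; other names were chosen after their values were seen. The members and lists were chosen with earlier results of these data known. Alternatives covered the background genes and percentile, normalization, dim probe sets, choice of probe set, spread and leaving out each array.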

Additional observations from a re-analysis of the deposited data

How the results depend on the processing

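No paired analysis was possible because the 3 arrays form a single group. Over 15 alternatives, 128 of 130 values of the 9 silencing genes kept their call, the exceptions being ctp without replicate 1 and CoRest by its probe set of lowest mean (-0.0078); wde, uncalled throughout, lay under the highest receptor gene (-0.083). The count above background was 7 to 8 without 1 array. It was 3 of 4 measured genes (2 at the stricter level) without probe sets of shared sequence, taken as those with suffix _s, _x or _a. That removes nxf2 and the HP1a gene (suffix _a) and ctp, mael and Su(var)3-3 (suffix _s), each annotated to 1 gene. Sharing of sequence with other genes was not tested. At the stricter level 4 to 6 passed without 1 array. With the level set by the highest receptor gene 4 of the 9 passed. With the 99th percentile 5 passed, by the probe set of lowest mean 5, and with the arrays centred on their medians 7. All genes were counted at the stricter level in the main setting only (25.3%). These counts of the 9 therefore have no share of all genes to be read against. Genes above background numbered 4168 to 6243, and 5219 to 5549 without 1 array; related genes numbered 20 to 28, and 28 without any 1 array. Markers of other cell types above background numbered 1 without shared probe sets and 3 to 4 without 1 array. Of 753 values of other named genes, 698 kept their call and 16 turned with a call on either side: HP5 (-0.055), ADD1 (-0.060) and Dic61B (-0.059) at the 99th percentile of the receptor genes; HP5 (-0.24), ADD1 (-0.24), Dic61B (-0.24) and l(3)mbt (-0.0010) with the highest receptor gene as level; HP4 (-0.043), ADD1 (-0.052), l(3)mbt (-0.058), Dhc64C (-0.058) and Pxn (-0.038) by the lowest probe set; ADD1 (-0.0048) by the mean of probe sets; HP4 (-0.087) and l(3)mbt (-0.10) without shared probe sets; and sov without 1 array (-0.096 to 0.11). Uncalled, sov also lay under the 99th percentile (-0.092) and the highest receptor gene (-0.28). With the pooled SD 0 genes were called below background, where none could be, and HP5, ADD1 and Dic61B were no longer above. Gasp lost its call under 8 alternatives. Prm gained a call above background under 3: the pooled SD, its probe set of lowest mean and leaving out replicate 3. The cause of these changes was not tested beyond the construction of each alternative.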
